A study of Mus musculus with 21 samples.

Results

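The cornified envelope genes of the epidermal differentiation complex were followed across 21 mouse skin RNA-seq libraries. They were taken by symbol: every row whose symbol starts with Lce1, Lce3, Lce6 or Sprr, plus Flg, Flg2, Hrnr, Rptn, Ivl, Lor (loricrin), Crnn, Crct1 and Kprp. This gave 47 members of 64050 symbols: 14 Lce1, 6 Lce3, 1 Lce6, 17 Sprr (2 Sprr1, 13 Sprr2, Sprr3 and Sprr4), 5 genes of the S100-fused type (Flg, Flg2, Hrnr, Rptn, Crnn) and 4 others (Ivl, Lor, Crct1, Kprp). Of these, 44 passed the filter on low counts. Sprr2c-ps, Sprr2k and Sprr3 did not pass it, and 10 of the 44 passed only because of their counts in the allogeneic control libraries. Among these 10, Crnn was low in those controls and had its highest levels in nintedanib libraries.

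All recipients were BALB/c mice 8 weeks old that were irradiated with 700 cGy and then received bone marrow, so keratinocytes stay those of the recipient while marrow-derived cells come from the donor. In the syngeneic group (Syn, 4 libraries) the donors were BALB/c and the mice were given isotype antibody mIgG2a LALA-PG. The other 4 groups had B10.D2 donors, which gives a sclerodermatous graft-versus-host disease: the same isotype antibody (Allo, 4 libraries), anti-IL1RAP antibody mCAN10 (4 libraries), ddH2O (Allo_H, 4 libraries) and the kinase inhibitor nintedanib (Nin, 5 libraries). Dosing ran from day 21, and skin from a 3 mm area was collected in week 7. Antibodies were injected into the peritoneum, at 20 mg/kg first and 10 mg/kg later. Nintedanib was dosed at 50 mg/kg, by mouth according to the protocol but by injection according to the design text. Donor strain and disease cannot be told apart between Syn and Allo.

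The outermost keratinocytes replace their plasma membrane with the cornified envelope, a shell of proteins that transglutaminases link together. Loricrin is its most abundant protein in ordinary skin, involucrin is laid down early, and the small proline-rich (SPRR) and late cornified envelope (LCE) proteins are cross-bridging parts whose mixture differs between sites and states of the skin. Filaggrin and its relatives bundle keratin filaments and are later broken down into the moisturising amino acids of the stratum corneum. In injured or inflamed skin, SPRR proteins and LCE proteins of group 3 are known to rise, whereas LCE proteins of groups 1 and 2 belong to ordinary terminal differentiation.

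All 47 members lie on chromosome 3. The order in the reference annotation ran from Lor through Sprr2, Sprr1b, Sprr3, Sprr1a, Sprr4, Ivl, Lce6a and the Lce1 block to Lce3, Crct1, Lce1m, Crnn, Flg2, Flg, Hrnr and Rptn, with Kprp and Lce1l between the Lce1 and Lce3 blocks. Lce1m thus lies apart from the other Lce1 genes. Its coding sequence was 49.3 to 59.1% identical to those of the 13 others, which were 74.6 to 95.7% identical among themselves. The 6 Lce3 coding sequences were 94.3 to 99.3% identical, and Sprr1a and Sprr1b 78.8%.

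RefSeq holds promoter windows for 41 of the 47 members, on build GRCm38.p6, an older build than that of the counts. The 250 bases before the start site were searched on both strands for 4 motifs. The AP-1 site TGANTCA, bound by Fos and Jun proteins, was found in 9 of 12 Sprr1 and Sprr2 windows, in 4 of 5 S100-fused windows and in those of Lor and Ivl, and in 0 of 20 Lce windows, compared with 6.75% of all mouse promoter windows. TATAAA was found in 20 of 41, compared with 12.4% of all. TTCNNNGAA, a site of STAT proteins, was found in 2 of 41, compared with 7.02% of all. An interferon response element, written as TTTC, any 2 bases and TTTC, was found in 0 of 41, compared with 2.98% of all. For 35 of the 41 starts, the bases that follow were found in a transcript of the gene in the reference annotation, at any position. Those that follow the starts of Flg2, Lce1m, Lce3a, Lce3f, Sprr2a2 and Sprr2a3 were not, so these windows may lie elsewhere than the promoter. Flg2 is 1 of the 4 S100-fused matches to the AP-1 site. No match of 1 motif overlapped a match of another. A match is a description of the letters and not evidence of binding. The windows of 6 members are shown to contrast the Sprr1, Sprr2, Lce1 and Lce3 promoters: Sprr1b (chr3:92438780-92439029, minus strand), Sprr1a (chr3:92485882-92486131, minus strand), Sprr2d (chr3:92338890-92339139, plus strand), Lce1a1 (chr3:92648308-92648557, minus strand), Lce1m (chr3:93019062-93019311, minus strand) and Lce3c (chr3:92944236-92944485, plus strand). They are written 5′ to 3′ and end next to the start site, and capitals mark TATAAA and TGANTCA.
Sprr1b: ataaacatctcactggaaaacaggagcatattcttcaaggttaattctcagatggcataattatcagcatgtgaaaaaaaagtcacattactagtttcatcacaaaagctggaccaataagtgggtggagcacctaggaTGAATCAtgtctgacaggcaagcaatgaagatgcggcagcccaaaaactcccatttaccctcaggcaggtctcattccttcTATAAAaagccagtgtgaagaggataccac
Sprr1a: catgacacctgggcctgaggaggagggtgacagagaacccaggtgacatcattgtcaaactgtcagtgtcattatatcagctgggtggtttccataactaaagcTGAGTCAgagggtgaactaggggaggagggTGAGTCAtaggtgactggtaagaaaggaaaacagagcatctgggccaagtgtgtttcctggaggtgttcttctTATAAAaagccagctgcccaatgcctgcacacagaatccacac
Sprr2d: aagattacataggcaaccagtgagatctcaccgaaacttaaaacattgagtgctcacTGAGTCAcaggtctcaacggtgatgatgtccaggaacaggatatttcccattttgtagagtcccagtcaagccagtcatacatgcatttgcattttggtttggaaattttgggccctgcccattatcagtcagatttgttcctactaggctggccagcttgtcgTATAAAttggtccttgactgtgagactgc
Lce1a1: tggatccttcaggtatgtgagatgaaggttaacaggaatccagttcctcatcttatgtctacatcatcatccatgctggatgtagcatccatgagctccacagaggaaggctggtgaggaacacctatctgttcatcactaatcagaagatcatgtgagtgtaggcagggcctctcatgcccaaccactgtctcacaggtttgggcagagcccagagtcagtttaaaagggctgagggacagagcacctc
Lce1m: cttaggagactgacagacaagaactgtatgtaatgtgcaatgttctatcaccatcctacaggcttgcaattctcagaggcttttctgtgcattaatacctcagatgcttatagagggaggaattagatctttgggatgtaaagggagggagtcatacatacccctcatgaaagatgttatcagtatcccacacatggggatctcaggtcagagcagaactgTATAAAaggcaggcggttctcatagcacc
Lce3c: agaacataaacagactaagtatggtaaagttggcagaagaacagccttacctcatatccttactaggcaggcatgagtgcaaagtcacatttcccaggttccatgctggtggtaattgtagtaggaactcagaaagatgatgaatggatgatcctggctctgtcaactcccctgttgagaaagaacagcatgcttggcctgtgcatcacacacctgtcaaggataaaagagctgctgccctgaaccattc
In these windows Sprr1b had 1 AP-1 match and Sprr1a 2, Sprr2d had 1, and Lce1a1, Lce1m and Lce3c had none. Lce1m had a TATAAA that Lce1a1 and Lce3c lacked.

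Total counts per library ranged from 17130264 to 32899212. Levels are given as CPM, counts scaled to the library's size with TMM factors, in the order of the replicate numbers. Changes are log2 fold changes ± SE from edgeR's quasi-likelihood fit of all 21 libraries, with p-values adjusted by Benjamini-Hochberg over the 20462 genes tested, and a gene changed if the adjusted p was under 0.05. Syn, Allo and mCAN10 were counted in one run and Allo_H and Nin in another with other gene names, so groups were compared within a run. The labels do not say that libraries are separate mice, and p-values then measure only the spread between these samples. Keratinocyte markers were present in every library, and nintedanib libraries 1 and 3 stood apart through hair keratins, which made up 4.42% and 2.04% of their counts and at most 0.0518% elsewhere. Allogeneic isotype library 1 also stood apart, with skeletal muscle genes at 0.00257% of counts against 0.493 to 6.80% in the other libraries. As a share of all counts, members made up 0.689 to 1.44% in Syn, 1.46 to 3.4% in Allo, 0.748 to 1.18% in mCAN10, 1.25 to 2.09% in Allo_H and 0.566 to 1.19% in Nin.

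The first comparison, allogeneic with syngeneic isotype skin, asks how the envelope genes differ in the disease. Sprr1b, 10 of the 11 Sprr2 genes tested and the Lce3 genes, most of them near 0 in syngeneic skin, rose. Of those that passed the filter also without the allogeneic controls, 6 of 6 Sprr2 genes rose, by 5.45 to 8.59 on the log2 scale, and 2 of 2 Lce3 genes, by 4.74 and 7.28. Most Lce1 genes and Flg, Hrnr and Rptn rose as well, while Flg2, Lor, Lce1m and Sprr4 did not pass the test. Of the 44 members tested, 35 rose and 0 fell, where 22.6% of all genes tested changed, 13.8% upward and 8.8% downward. The median log2 fold change was 3.50, and 0.00 over all genes. Groups did not overlap for 33 members (16.8% of all genes were higher without overlap). Leaving aside the 10 members that passed the filter only through the allogeneic controls, 27 of 34 rose, and the median was 2.45. In bulk skin, fewer cells of a type and less RNA per cell cannot be told apart.

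Filaggrin (Flg) was at 30.4, 32.6, 64.5 and 65.7 CPM in the 4 syngeneic libraries and at 1083, 763, 859 and 2369.5 CPM in the 4 allogeneic ones. Every allogeneic library was over 10 times as high as any syngeneic one. The log2 fold change was 4.72 ± 0.66 (adjusted p = 0.000122). Hornerin (Hrnr), a filaggrin relative with many repeats, was at 29.2, 25.6, 62.4 and 69.6 CPM in Syn and 419, 437, 426 and 1045 CPM in Allo, with no overlap. It rose by 3.64 ± 0.57 (adjusted p = 0.000309). Repetin (Rptn), chosen after its values were seen, went from 3.36, 5.7, 13 and 7 CPM to 451, 57.1, 335 and 173 CPM and rose by 5.13 ± 1.02 (adjusted p = 0.00167).

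Filaggrin-2 (Flg2), the neighbour of Flg, did not follow it. Its levels were 574, 636, 854 and 1054 CPM in Syn and 613, 797, 387 and 1206 CPM in Allo. The groups overlapped, and the log2 fold change was -0.05 ± 0.31 (adjusted p = 0.957). Cornulin (Crnn), an envelope protein best known from the oesophagus and singled out after its values were seen, was at 0, 0, 0.179 and 0 CPM in Syn and 5.32, 0.208, 0.339 and 1.25 CPM in Allo, at a log2 fold change of 5.31 ± 2.83 (adjusted p = 0.192). Its highest library, allogeneic 1, also had the highest hair keratin share of the first counting run, at 0.0518%.

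Among the structural proteins, loricrin (Lor) had the highest level per kilobase of exon of all members in each of the 5 groups. In CPM it was at 4383, 3895, 5861 and 8904 in Syn and at 7024, 7289, 8066 and 18697 in Allo. The groups overlapped, and only allogeneic library 4 was above all syngeneic libraries. Its log2 fold change was 0.83 ± 0.50 (adjusted p = 0.248). Involucrin (Ivl), the early scaffold protein, went from 40.7, 40.7, 98.7 and 77.8 CPM to 128, 113, 87.3 and 297 CPM, also with overlap, and rose by 1.28 ± 0.42 (adjusted p = 0.0361). Kprp, a keratinocyte proline-rich protein, rose by 1.42 ± 0.38 (adjusted p = 0.0123), and Crct1, a cysteine-rich protein, was at 0.76 ± 0.31 (adjusted p = 0.088). The Ivl call is close to the threshold and was lost in 10 of its 19 alternative settings.

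**Figure D1:**
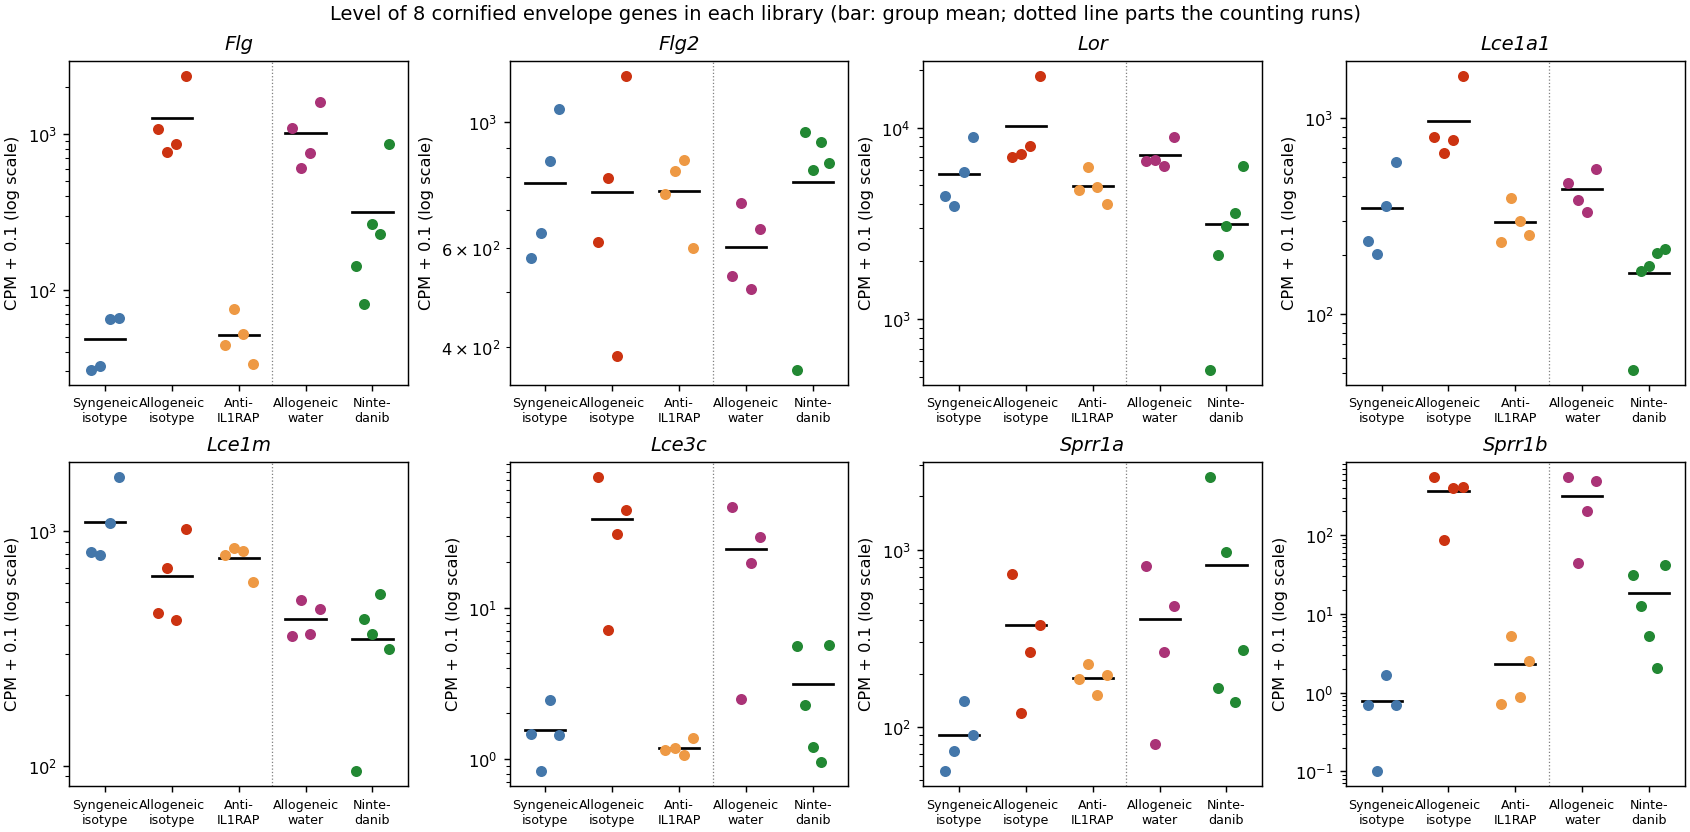
Level of 8 members in each library, as CPM plus 0.1 on a log axis; each point is a library, the bar is the group mean, and the dotted line parts the 2 counting runs. Flg, Lce3c and Sprr1b are high in the allogeneic controls, whereas Flg2 and Lce1m overlap between the syngeneic and allogeneic groups.

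Of the 14 Lce1 genes, which encode envelope proteins of ordinary terminal differentiation, 12 rose in allogeneic skin, with a median log2 fold change of 1.89 over all 14. Lce1a1 was at 236, 202, 356 and 597 CPM in Syn and 799.6, 665, 771 and 1643 CPM in Allo. The 2 ranges did not overlap, and the gene rose by 1.48 ± 0.40 (adjusted p = 0.0127). Among those that rose, the change went from 1.30 ± 0.42 at Lce1b to 3.54 ± 0.59 at Lce1g. Lce1b was at 128, 92.3, 177 and 275 CPM in Syn and 351, 251, 319 and 738 CPM in Allo, and Lce1g at 13.1, 23.4, 29.1 and 42.7 CPM and 254, 155, 254 and 596 CPM. Lce1l did not pass the test, at 1.05 ± 0.39 (adjusted p = 0.0604).

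Lce1m was the member of the group with the opposite sign. It was at 816, 791, 1081 and 1706 CPM in Syn and at 446, 698, 417 and 1024 CPM in Allo. The groups overlapped and the log2 fold change was -0.77 ± 0.39 (adjusted p = 0.167), not past the threshold. Within each library, however, Lce1m made up 44.7, 48.5, 42.5 and 41.6% of Lce1 counts in Syn and 10.1, 17.9, 9.54 and 10.9% in Allo, with no overlap. Lce1m was the second most abundant member per kilobase of exon in Syn, at 1158 ± 449 CPM per kilobase (SD, n = 4), and ranked 6 in Allo, at 681 ± 297 CPM per kilobase (SD, n = 4). Lce6a, a lone relative, went from 17.3, 16.1, 39.4 and 44.8 CPM to 96.7, 80.8, 91.5 and 215 CPM without overlap and rose by 2.04 ± 0.59 (adjusted p = 0.0172).

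Lce3c and Lce3f, the 2 Lce3 genes that passed the filter also without the allogeneic controls, both rose in allogeneic skin. The other 4 (Lce3a, Lce3b, Lce3d and Lce3e) passed it only because they were high there, so that they were bound to differ, and are given as a description, at log2 fold changes from 7.54 for Lce3a to 8.79 for Lce3d and a bound for Lce3b. Lce3c, the higher of the first 2, was at 1.37, 0.729, 2.37 and 1.34 CPM in Syn and at 73.6, 7.07, 30.6 and 44.1 CPM in Allo, and rose by 4.74 ± 0.83 (adjusted p = 0.000675). Allogeneic library 2 was far below the other 3 of its group but above every syngeneic library. Lce3f went from 0.273, 0.0429, 0.224 and 0.164 CPM to 66.8, 3.17, 20.8 and 22.5 CPM and rose by 7.28 ± 1.31 (adjusted p = 0.000805). Lce3b had 0 counts in all 4 syngeneic libraries and was at least 246-fold higher in Allo, against 3 counts over the syngeneic group, a bound that covers counting error only. It was also at 0 in allogeneic library 2. Between 24.1 and 43.0% of the 100-base windows of Lce3c, Lce3d, Lce3e and Lce3f transcripts are shared with another member, so reads may have been split among these 4.

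Counted within a library, Lce3 counts per 1000 Lce1 counts were 1.03, 0.473, 1.18 and 0.375 in Syn and 65.2, 3.61, 19.8 and 11.3 in Allo. The ranges did not overlap, and the allogeneic libraries differed among themselves by more than 10-fold. The corresponding Sprr2 ratio was 1.58, 4.52, 2.18 and 7.84 in Syn and 377, 307, 322 and 246 in Allo, a narrower spread within Allo. No test was made of these ratios.

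Sprr genes encode small proline-rich cross-bridging proteins, and 11 of the 14 tested rose. Sprr1b was at 0.585, 0, 1.57 and 0.589 CPM in Syn and 549, 87, 399 and 408 CPM in Allo, and rose by 9.04 ± 1.30 (adjusted p = 0.000144). Sprr1a, its close relative, was already present in syngeneic skin at 56.2, 73.5, 141 and 90.4 CPM, against 732, 120.1, 265 and 375 CPM in Allo. Allogeneic library 2 fell inside the syngeneic range, and the change was 2.05 ± 0.82 (adjusted p = 0.0786). As a share of both genes' counts, Sprr1b went from 1.03, 0, 1.1 and 0.647% to 42.8, 42, 60.1 and 52.1%. Sprr4 was at 11.3, 21, 41.3 and 21.5 CPM and 47.8, 2.03, 3.05 and 23 CPM and did not pass the test, at -0.32 ± 0.86 (adjusted p = 0.854). Sprr3, known from internal epithelia, had 0 counts in Syn and 10 counts over Allo.

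Of the 11 Sprr2 genes tested 5 (Sprr2a2, Sprr2b, Sprr2f, Sprr2i and Sprr2j-ps) passed the filter only through the allogeneic controls. The other 6 all rose, with a median log2 fold change of 6.58. Sprr2a3 was the most abundant, at 0.859, 6.31, 2.37 and 29 CPM in Syn and 1287, 1028, 1205 and 1984 CPM in Allo, and rose by 7.15 ± 1.63 (adjusted p = 0.00423). Syngeneic library 4 was the highest of its group and still far below every allogeneic one. Sprr2a1 went from 0.078, 0.0858, 0 and 0.621 CPM to 45.4, 117, 98.9 and 79.4 CPM and rose by 8.59 ± 1.49 (adjusted p = 0.000629). Sprr2h went from 0.937, 0.257, 1.66 and 0.981 CPM to 81.4, 7.9, 23.3 and 89.6 CPM and rose by 5.72 ± 1.14 (adjusted p = 0.00167). Allogeneic library 2 was the lowest of its group for all Sprr2 genes but Sprr2a1 and Sprr2c-ps, for which it was the highest. Among those at 0 in Syn, Sprr2b was at least 120-fold, Sprr2k at least 23.3-fold and Sprr2c-ps at least 19.6-fold higher in Allo. The pseudogene Sprr2j-ps did not pass the test, at 2.91 ± 1.14 (adjusted p = 0.0736).

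Sprr2a1, Sprr2a2 and Sprr2a3 cannot be told apart securely by short reads. Their coding sequences are all 252 bases long, that of Sprr2a2 is identical to that of Sprr2a1, and that of Sprr2a3 differs at 3 bases. Those of Sprr2a1 and Sprr2a3 are shown from the start codon, 5′ to 3′, with the bases of Sprr2a3 that differ in capitals.
Sprr2a1: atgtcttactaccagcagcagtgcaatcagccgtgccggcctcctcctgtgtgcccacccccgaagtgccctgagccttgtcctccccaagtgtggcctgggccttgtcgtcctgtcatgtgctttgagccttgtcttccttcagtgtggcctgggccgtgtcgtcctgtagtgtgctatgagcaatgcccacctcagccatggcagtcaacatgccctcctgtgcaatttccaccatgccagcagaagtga
Sprr2a3: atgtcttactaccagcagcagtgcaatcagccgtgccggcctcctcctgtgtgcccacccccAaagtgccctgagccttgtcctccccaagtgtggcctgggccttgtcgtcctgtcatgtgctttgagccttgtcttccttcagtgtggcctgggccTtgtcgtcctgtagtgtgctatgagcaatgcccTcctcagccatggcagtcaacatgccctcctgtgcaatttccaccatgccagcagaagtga
Of the 100-base windows of the Sprr2a1 transcript, 92.5% also occur in another member, most often Sprr2a2, whose exons overlap those of Sprr2a1 in the reference annotation. The division of counts between these 3 genes is therefore uncertain.

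**Figure D2:**
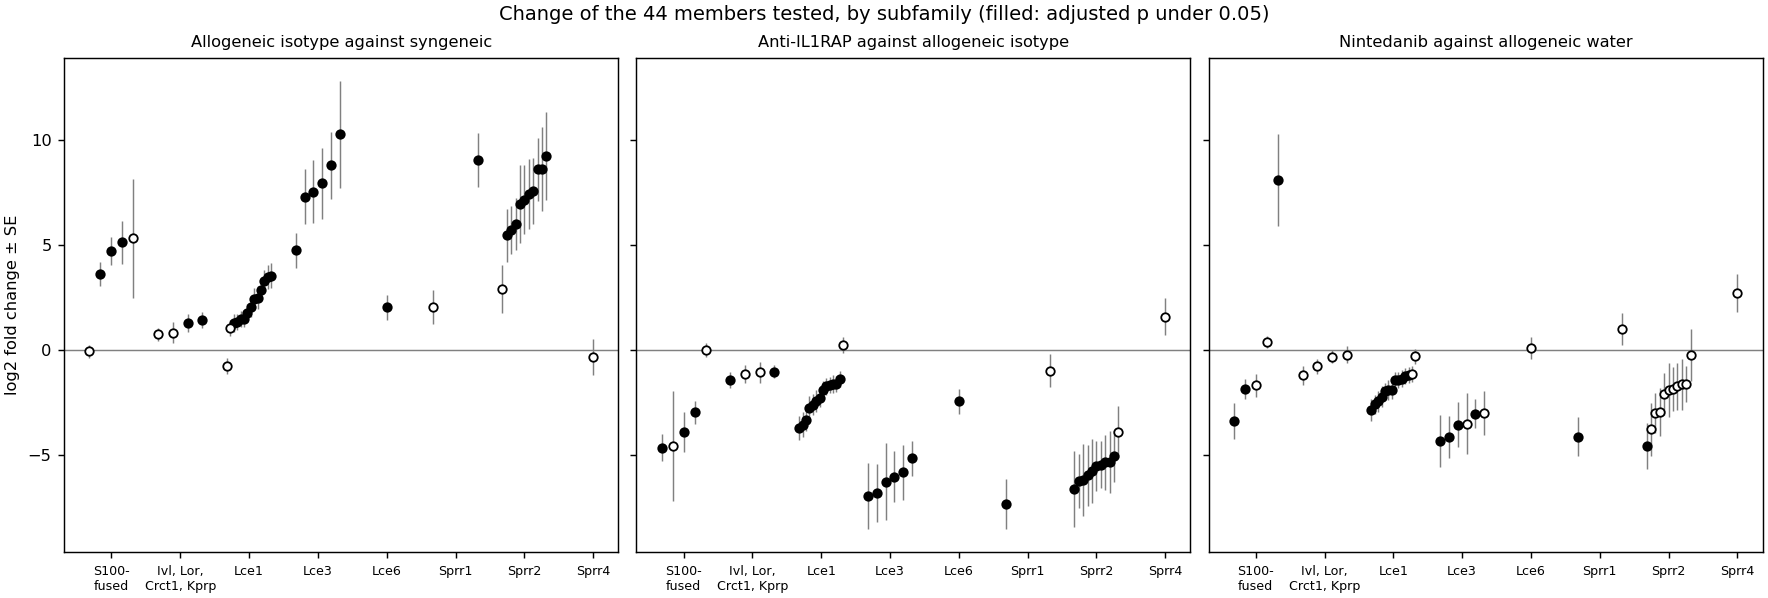
Log2 fold change ± SE (y axis) of each of the 44 members tested, grouped by subfamily (x axis), in 3 comparisons; filled points have an adjusted p under 0.05. The points of Sprr1b, the Lce3 genes and the Sprr2 genes other than Sprr2j-ps lie above those of the Lce1 genes in the first panel and below them in the second, and both panels use the same allogeneic isotype libraries. Of the Lce3 and Sprr2 genes, 4 and 5 passed the filter only through the allogeneic controls.

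Along the chromosome, neighbouring blocks had different changes. Sprr2 genes lie in a block next to Lor and Lce3 genes in a block next to Crct1. Of those that passed the filter also without the allogeneic controls, Sprr2 genes changed by 5.45 to 8.59 and Lce3 genes by 4.74 to 7.28. Beside these log2 fold changes, Lor was at 0.83 and Crct1 at 0.76. Flg2, at -0.05, lay between Crnn and Flg, the latter at 4.72. Crnn, at 5.31, passed the filter only through the allogeneic controls and did not pass the test. Within the Lce1 block, 1.48 at Lce1a1 and 1.30 at Lce1b stood at one end, 3.54 at Lce1g inside it and 3.30 at Lce1k at the other end. The plot of changes in gene order shows these steps.

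**Figure D3:**
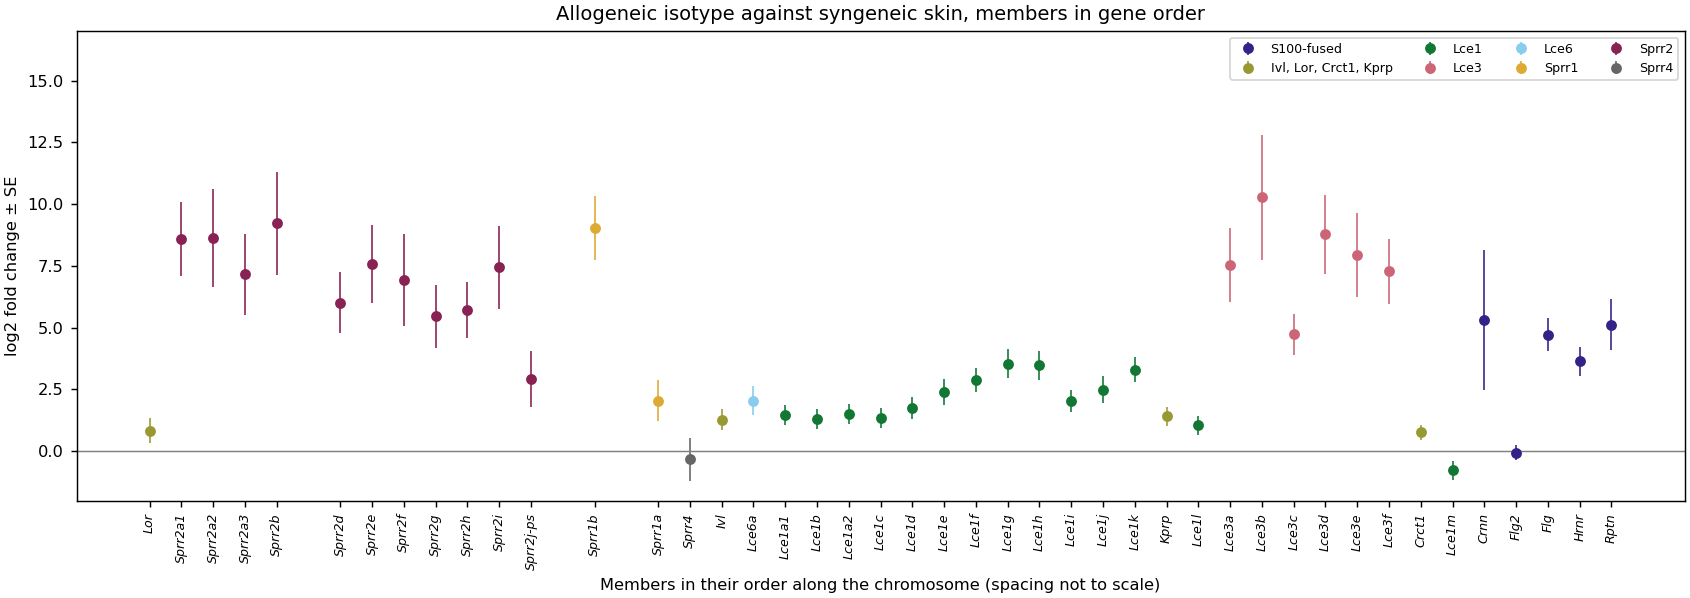
Log2 fold change ± SE (y axis) between allogeneic and syngeneic isotype skin for the 44 members tested, in their order along the chromosome (x axis, not to scale), coloured by subfamily. The Sprr2 and Lce3 blocks are high, while Lor, Sprr4, Crct1, Lce1m and Flg2 lie between -0.77 and 0.83. In these blocks 5 Sprr2 and 4 Lce3 genes passed the filter only through the allogeneic controls, as did Crnn. The points of Lce3b and Sprr2b, which had 0 syngeneic counts, depend on the fit's prior count.

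Genes that build, modify or switch on the envelope rose in part. The shares over all genes tested were 13.8% higher and 8.8% lower. Of 11 genes for scaffold and cross-linking proteins 4 rose and 0 fell: the transglutaminases Tgm1 (1.73 ± 0.34, adjusted p = 0.00159) and Tgm3 (3.63 ± 0.73, adjusted p = 0.00187), corneodesmosin (Cdsn, 1.39 ± 0.31, adjusted p = 0.00369) and envoplakin (Evpl, 0.63 ± 0.22, adjusted p = 0.0454). Of 10 genes that process filaggrin or its products 6 rose, among them the hydrolase Blmh (1.87 ± 0.27), the protease Asprv1 (2.31 ± 0.38), caspase-14 (Casp14, 2.78 ± 0.54) and prostasin (Prss8, 1.12 ± 0.33). Of 19 differentiation transcription factors 9 rose, including Cebpb (1.09 ± 0.15), Grhl3 (1.56 ± 0.24) and the AP-1 subunit Junb (1.53 ± 0.24). Median log2 fold changes of these 3 lists were 0.50, 1.5 and 0.69. Of 16 other genes of the complex tested, 3 rose (Pglyrp3, S100a9, at 3.89 ± 0.87, and S100a8) and 1 fell (S100a13), with a median of 0.53. These last counts lie near the shares over all genes. S100a8 and S100a9 are also neutrophil genes, and 4 of 4 neutrophil genes tested rose.

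Some markers of the suprabasal layers rose beside the members, whereas the basal markers had 1 gene higher and 1 lower. Over all genes tested, 13.8% were higher and 8.8% lower. Of 7 suprabasal keratinocyte genes 4 rose and 3 did not pass the test, at log2 fold changes from -0.91 to 3.01. The summed share of all 7 was 1.14 to 1.88% of counts in Syn and 3.32 to 4.89% in Allo. The keratin Krt10 rose by 1.47 ± 0.48 (adjusted p = 0.0345). Of 6 basal keratinocyte genes 1 rose, Krt14, and 1 fell, Krt15, with summed shares of 0.869 to 1.5% and 1.09 to 1.64%. The 4 stress keratinocyte genes summed to 0.0824 to 0.131% in Syn and 0.401 to 0.885% in Allo, with 3 higher. Fibroblast genes, at 0.44 to 0.641% in Syn and 0.0701 to 0.501% in Allo, went the other way, with 2 of 7 lower. Ratios to Krt10 and keratin covariates give the members' values beside these shifts, and their part was not tested otherwise.

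Counts were also set against Krt10 in the same library, which leaves the ratios between subfamilies unchanged. Lce1 counts per Krt10 count were 0.352, 0.306, 0.291 and 0.461 in Syn and 0.275, 0.231, 0.221 and 0.374 in Allo, and those of Lor were 0.845, 0.73, 0.671 and 1 and 0.438, 0.432, 0.408 and 0.742. Both overlapped between the groups, with the lowest libraries in Allo. By contrast, Flg per Krt10 count was 0.00586, 0.0061, 0.00738 and 0.00739 in Syn and 0.0676, 0.0452, 0.0435 and 0.094 in Allo, and Sprr2 per Krt10 count ranged over 0.000557 to 0.00361 in Syn and 0.0711 to 0.104 in Allo, both without overlap. With the mean level of Krt1 and Krt10 as a covariate, an alternative added after seeing the data, 19 members were higher and 2 lower in Allo. Flg stayed at 3.23 (adjusted p = 0.00211) and Sprr1b at 8.79 (adjusted p = 0.00158), Lce1a1 was at 0.10 (adjusted p = 0.919), and the 2 lower ones were Lor, at -1.16 (adjusted p = 0.0425), and Lce1m, at -2.05 (adjusted p = 0.00725). With Krt5 and Krt14 as the covariate 21 members rose.

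The comparison of anti-IL1RAP with isotype antibody in allogeneic mice asks what the antibody did to these genes; IL1RAP is the accessory chain shared by several receptors of the IL-1 family. Flg, Hrnr, Rptn, 13 of 14 Lce1 genes, Sprr1b and most Sprr2 and Lce3 genes fell in treated skin. Of those that passed the filter also without the allogeneic controls, 6 of 6 Sprr2 genes fell, with a median of -5.48 on the log2 scale, and 2 of 2 Lce3 genes, at -5.15 and -6.01, beside a median of -2.07 for Lce1. Of the 44 members 36 fell and 0 rose, where 10.8% of all genes tested changed, 5.58% upward and 5.19% downward. The median log2 fold change was -3.62, against 0 over all genes, and groups did not overlap for 35 members (10.9% of all genes were lower without overlap). The comparison uses the same isotype libraries as the one with syngeneic skin, so the values stand side by side and are not independent of each other. Without the 10 members that passed the filter only through allogeneic controls, 28 of 34 fell, and the median was -2.51.

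Flg was at 43.9, 75.1, 52.2 and 33.4 CPM in the 4 mCAN10 libraries, all below the lowest isotype library at 763 CPM, with a log2 fold change of -4.63 ± 0.66 (adjusted p = 0.000391). Hrnr was at 66, 126, 60.04 and 48 CPM and fell, at -2.96 ± 0.56 (adjusted p = 0.00276). Rptn was at 17.6, 19.9, 13.9 and 16.6 CPM, at -3.90 ± 0.96 (adjusted p = 0.0129). Above the highest syngeneic library lay 1 of these 4 libraries for Flg, 1 for Hrnr and all 4 for Rptn. Flg2 was at 747, 819, 855 and 599 CPM and did not pass the test, at 0.01 ± 0.31 (adjusted p = 1).

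Lor was at 4737, 6203, 4879.6 and 3981 CPM, below all isotype libraries, but did not pass the test, at -1.05 ± 0.50 (adjusted p = 0.201). Ivl was at 55.6, 95.5, 79.9 and 53.7 CPM, at -1.14 ± 0.42 (adjusted p = 0.0958), also not past it. Kprp and Crct1 fell, at -1.42 ± 0.38 (adjusted p = 0.0223) and -1.03 ± 0.31 (adjusted p = 0.0421). The call of Crct1 was lost in 11 of its 19 alternative settings.

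Among Lce1 genes 13 of 14 fell, with a median log2 fold change of -2.07. Per Krt10 count, however, Lce1 counts were 0.265, 0.261, 0.282 and 0.263 in mCAN10, inside the isotype range of 0.221 to 0.374. Flg per Krt10 count was 0.00532 to 0.00776 in mCAN10 and 0.0435 to 0.094 in the isotype group, without overlap. Lce1a1 was at 233, 390.1, 298 and 252 CPM, below every isotype library, at -1.73 ± 0.40 (adjusted p = 0.0101). Lce1m was at 791, 848, 821 and 608 CPM and was the one that did not fall, at 0.25 ± 0.39 (adjusted p = 0.771). Its share of Lce1 counts was 42.2, 33.6, 41.5 and 36.7%, above all isotype libraries. Lce6a was at 21.3, 26.2, 22.8 and 19.5 CPM and fell, at -2.43 ± 0.59 (adjusted p = 0.0126).

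The 4 Lce3 genes that passed the filter only through the allogeneic controls were at log2 fold changes from -6.94 for Lce3e to -5.80 for Lce3a. Lce3c was at 1.04, 1.08, 0.956 and 1.28 CPM, a narrow range at the syngeneic level, at -5.15 ± 0.85 (adjusted p = 0.00123). Lce3f was at 0.193, 0.886, 0.0478 and 0.549 CPM, at -6.01 ± 1.20 (adjusted p = 0.00393). Of the 14 Sprr genes tested 11 fell. Sprr1b was at 0.617, 5.13, 0.765 and 2.43 CPM, at -7.31 ± 1.19 (adjusted p = 0.00109). Sprr1a kept a level of 185, 227, 150.4 and 195 CPM, inside the isotype range, at -0.98 ± 0.79 (adjusted p = 0.501), and Sprr1b made up 0.332, 2.2, 0.506 and 1.23% of the counts of both. Sprr4 was at 51.7, 69.2, 38.1 and 68.5 CPM, at 1.58 ± 0.88 (adjusted p = 0.289).

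Of 11 Sprr2 genes 10 fell, among them all 6 that passed the filter also without the allogeneic controls. Sprr2a3 was at 2.89, 50.2, 7.12 and 41.3 CPM, at -5.76 ± 1.53 (adjusted p = 0.0198), Sprr2a1 at 0.116, 2.44, 0.191 and 1.69 CPM, at -6.22 ± 1.29 (adjusted p = 0.00497), and Sprr2h at 0.116, 1.49, 1.96 and 1.05 CPM, at -5.45 ± 1.12 (adjusted p = 0.00469). The mCAN10 libraries 2 and 4 were the higher ones for both Sprr2a genes, by more than 5-fold over the other pair. Sprr2k had 0 counts in mCAN10 and was at least 22.9-fold lower. Of the regulators, 7 of 19 differentiation factors fell, among them Grhl3 (-1.12 ± 0.23), Cebpb (-0.71 ± 0.15) and Junb (-0.83 ± 0.24). So did 5 of 10 filaggrin processing genes and 2 of 11 scaffold and cross-linking genes, where 5.19% of all genes tested fell. Suprabasal keratinocyte genes made up 1.46 to 2.27% of counts in mCAN10, with 3 of 7 lower than in Allo. Their log2 fold changes went from -2.64 to 0.96. With Krt5 and Krt14 as a covariate 15 members fell. With Krt1 and Krt10 as the covariate 13 fell and Lce1m was higher, at 1.42 (adjusted p = 0.0431).

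Treated allogeneic skin was then set beside syngeneic skin, to see which members still differed. By edgeR 0 of 44 members differed, with 0 at an unadjusted p under 0.05 and 0 by DESeq2, where 0.811% of all genes tested changed, 0.777% upward and 0.0342% downward. A p that misses the threshold does not show equal levels. The median log2 fold change was 0.20 over the members and 0.03 over all genes. The SE allowed sizeable differences for several: Sprr1b was at 1.73 ± 1.05 (adjusted p = 0.507), Sprr2a1 at 2.37 ± 1.39 (adjusted p = 0.487) and Lce3b, at 0 in Syn, had 9 counts over mCAN10. For Lce1 genes the estimates were tighter, from -0.52 (Lce1m) to 0.28 (Lce1f). Sprr1a, at 1.07 ± 0.79 (adjusted p = 0.613), and Rptn, at 1.23 ± 0.88 (adjusted p = 0.597), were the 2 members higher in every mCAN10 library than in any syngeneic one, where 10.8% of all genes were higher without overlap, and 0 members were lower without overlap (8.05% of all genes). With only these 2 groups in the fit, 30 members were tested and Sprr1a alone passed, at 1.03 (adjusted p = 0.0361). In that fit 2131 of 18953 genes passed, against 166 of 20462 in the fit of all 21 libraries. The share of all genes that differ thus depends on the libraries fitted.

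**Figure D4:**
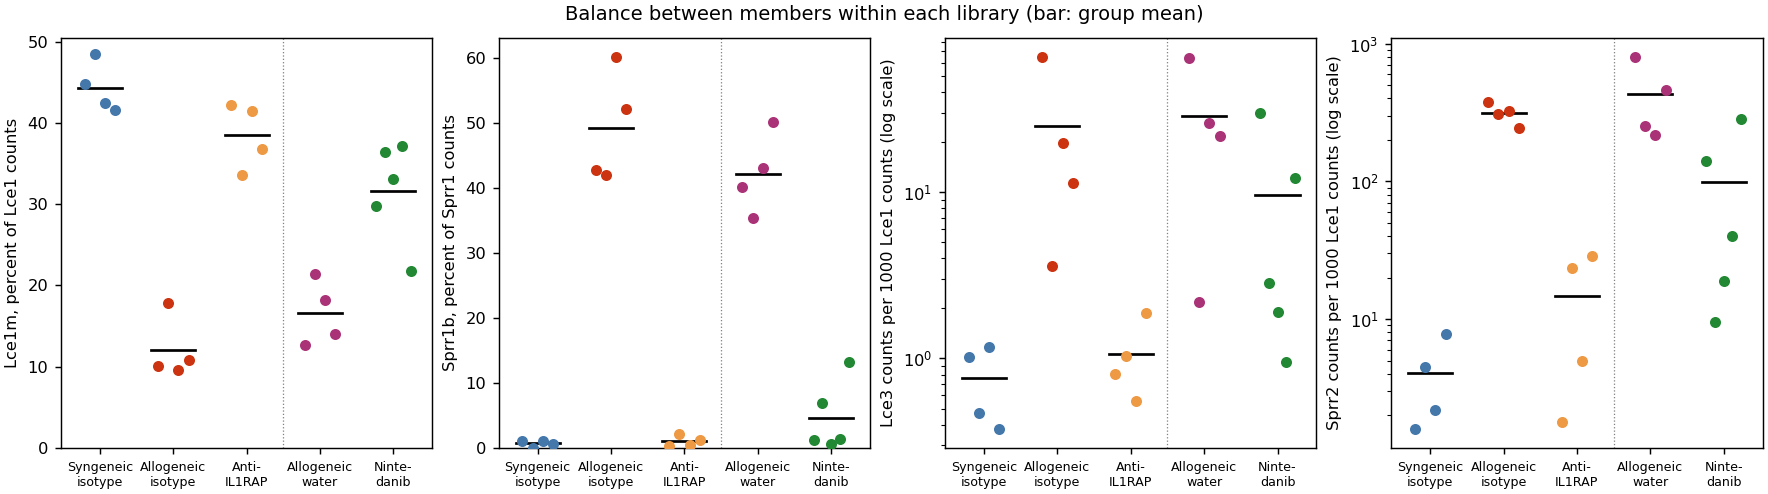
Balance between members within each library: Lce1m as a percent of Lce1 counts, Sprr1b as a percent of Sprr1 counts, and Lce3 and Sprr2 counts per 1000 Lce1 counts (log axes); points are libraries, bars group means, and the dotted line parts the counting runs. Both allogeneic control groups hold low Lce1m and high Sprr1b shares, and the mCAN10 libraries lie nearer to the syngeneic than to the isotype ones. The mCAN10 libraries 2 and 4, at 23.6 and 28.8 Sprr2 counts per 1000 Lce1 counts, lie above the syngeneic maximum of 7.84. Their Lce1m shares of 33.6 and 36.7% lie below the syngeneic minimum of 41.6%.

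The second treatment comparison, nintedanib with ddH2O in allogeneic mice, rests on the other counting run. Most Lce1 genes, Hrnr, Rptn, Sprr1b, Sprr2a1, Lce3c, Lce3f and 2 other Lce3 genes were lower with nintedanib, Flg and most Sprr2 genes did not pass the test, and Crnn was higher. Of 44 members 20 fell and 1 rose, where 9.31% of all genes tested changed, 3.76% downward and 5.56% upward. The median log2 fold change was -1.85, against 0 over all genes, and 18 members were lower without overlap (3.2% of all genes) and 0 higher (4.75%). Without the 10 members that passed the filter only through allogeneic controls, 18 of 34 fell, and the median was -1.76. These calls rest on the spread shared by all 21 libraries: with the 9 libraries of this run alone only Lce1k passed, at -2.58 (adjusted p = 0.0413), and 94 genes in all. In that fit Sprr1b was at -4.11 (adjusted p = 0.0830) and Lce1a1 at -1.41 (adjusted p = 0.101). Both fits take these changes from the same 9 libraries, so their size could hardly differ and only the spread did.

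The 12 Lce1 genes that fell were all but Lce1l and Lce1m, with a median of -1.66 over the 14. Per Krt10 count, however, Lce1 counts were 0.109 to 0.267 with water and 0.094 to 0.218 with nintedanib, and overlapped. Lce1a1 was at 467, 384, 332 and 551 CPM with water and 51.6, 165, 177, 205 and 214 CPM with nintedanib. The groups did not overlap, library 1 was by far the lowest, and the log2 fold change was -1.41 ± 0.37 (adjusted p = 0.0247). Lce1k, singled out as the one that passed in the smaller fit, was at 82.1, 47.9, 43.8 and 76.5 CPM and 2.9, 9.12, 9.05, 12.3 and 18.9 CPM, at -2.58 ± 0.46 (adjusted p = 0.00294). Lce1m was at 358, 507, 364 and 464 CPM and 94.6, 423, 364, 538 and 314 CPM, at -0.29 ± 0.36 (adjusted p = 0.722). Its share of Lce1 counts was 12.7, 21.4, 18.3 and 14% with water and 29.8, 36.4, 33.1, 37.2 and 21.8% with nintedanib.

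Flg was at 1097, 609, 755 and 1604 CPM with water and 143, 81.3, 263, 228 and 870.1 CPM with nintedanib. Nintedanib library 5 lay inside the water range while the other 4 lay below it, and the change was -1.68 ± 0.54 (adjusted p = 0.0561). Without library 5 it passed, at -2.51 (adjusted p = 0.00297). Hrnr was at 474, 521, 382 and 786 CPM and 30.2, 113, 125, 166 and 318 CPM and fell without overlap, at -1.84 ± 0.50 (adjusted p = 0.0265). Rptn was at 685, 31.6, 145 and 838 CPM and 28.5, 9.76, 19.9, 13.4 and 136 CPM and fell, at -3.35 ± 0.86 (adjusted p = 0.0208), with library 5 again the highest and overlapping the water group. Flg2 was at 534, 719, 507 and 647 CPM and 365, 960.3, 823, 922 and 846 CPM, at 0.38 ± 0.30 (adjusted p = 0.479).

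Lor was at 6715, 6771, 6348 and 8992 CPM and 541, 2154, 3059, 3572 and 6325 CPM, without overlap, but did not pass the test, at -1.20 ± 0.47 (adjusted p = 0.109); without nintedanib library 5 it did, at -1.63 (adjusted p = 0.0272). Ivl was at 179.6, 107, 142 and 292 CPM and 246, 91.8, 135, 102 and 199 CPM, at -0.22 ± 0.40 (adjusted p = 0.851). Lce3c was at 46.4, 2.39, 19.6 and 29.5 CPM and 5.46, 2.17, 1.11, 0.853 and 5.61 CPM and fell, at -3.01 ± 0.71 (adjusted p = 0.0137), although water library 2 lay inside the nintedanib range. Lce3f was at 42.6, 0.849, 9.43 and 12.7 CPM and 0.111, 0.689, 0.369, 0.32 and 3.17 CPM, at -4.14 ± 1.00 (adjusted p = 0.0163). The 4 Lce3 genes that passed the filter only through allogeneic controls were between -4.33 (Lce3e) and -2.99 (Lce3a). Water library 2 resembled isotype library 2 in being the lowest of its group for all 6 Lce3 genes and the highest for Sprr2a1.

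Sprr1b was at 543, 43.5, 201 and 482 CPM with water and 31.3, 12.3, 5.17, 1.92 and 41.4 CPM with nintedanib, with no overlap, and fell, at -4.11 ± 0.93 (adjusted p = 0.0116). Of 11 Sprr2 genes only Sprr2a1, whose reads are not securely told apart from those of Sprr2a2 and Sprr2a3, passed the test. Sprr2a1 was at 13.5, 105, 6.51 and 17 CPM and 0, 0, 0.508, 1.55 and 5.61 CPM and fell, at -4.55 ± 1.10 (adjusted p = 0.0163). All Sprr2 counts summed to 0.0445 to 0.21% of counts with water and 0.00112 to 0.0397% with nintedanib, without overlap and without a test. Sprr2a3 was at 2082, 449.6, 360.4 and 1358 CPM and 2.28, 2.49, 14.4, 53.1 and 319.8 CPM, at -3.76 ± 1.27 (adjusted p = 0.0669), and without nintedanib library 5 at -5.88 (adjusted p = 0.00860). Sprr2h was at 66.8, 6.31, 37 and 44.6 CPM and 37.4, 3.02, 4.29, 1.33 and 17 CPM, at -1.62 ± 0.87 (adjusted p = 0.256). The median over the 6 Sprr2 genes that passed the filter also without allogeneic controls was -2.53.

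A few members were high in nintedanib libraries. Crnn was at 0.122, 0.159, 2.41 and 0.969 CPM with water and 1044, 0.106, 211, 0.16 and 0.283 CPM with nintedanib, so the rise of 8.09 ± 2.18 (adjusted p = 0.027) came from libraries 1 and 3. Sprr1a was at 809, 79.8, 266 and 479 CPM and 2568, 166, 965, 139 and 271 CPM, at 1.01 ± 0.76 (adjusted p = 0.454). Sprr4 was at 35.4, 2.65, 13 and 6.61 CPM and 264, 30.01, 70.01, 33.7 and 79.6 CPM, at 2.73 ± 0.90 (adjusted p = 0.0609), and Lce6a at 64, 28.6, 35 and 69.6 CPM and 147, 15.3, 49.4, 17.6 and 36.5 CPM, at 0.11 ± 0.54 (adjusted p = 1). Library 1 was the highest for all 4 of these genes and the lowest for Lor, Flg2, Hrnr and Lce1a1, and had the lowest suprabasal keratinocyte share, at 0.471% of counts.

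Hair keratins were highest in nintedanib libraries 1 and 3, which were also the highest of their group for Crnn, Sprr1a and Lce6a. For Sprr4, library 5 lay above library 3. The 12 hair follicle genes summed to 0.00019 to 0.000505% of counts in Syn, 0.000174 to 0.0518% in Allo, 0.000268 to 0.00052% in mCAN10, 0.000221 to 0.0306% in Allo_H and 0.000128 to 4.42% in Nin, and 6 of 12 were higher with nintedanib. Of the other genes of the complex, trichohyalin (Tchh, 7.49 ± 2.16, adjusted p = 0.0368), Tchhl1 (8.91 ± 2.19, adjusted p = 0.0176) and S100a3 (7.29 ± 2.19, adjusted p = 0.0429), all known from the hair follicle, were the 3 that rose. Over all genes tested, 5.56% rose with nintedanib. With nintedanib libraries 1 and 3 left out, chosen after seeing the data, 7 members fell and 0 rose: Lce1g, Lce1h, Lce1i, Lce1j, Lce1k, Lce3c and Sprr1b. Sprr1a was then at -1.12 and Lce6a at -1.13, neither past the threshold, each with its sign turned. Sprr4 was at 30.01, 33.7 and 79.6 CPM in nintedanib libraries 2, 4 and 5. With water it was at 35.4, 2.65, 13 and 6.61 CPM. Any part of hair follicle content in the other changes was not tested.

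**Figure D5:**
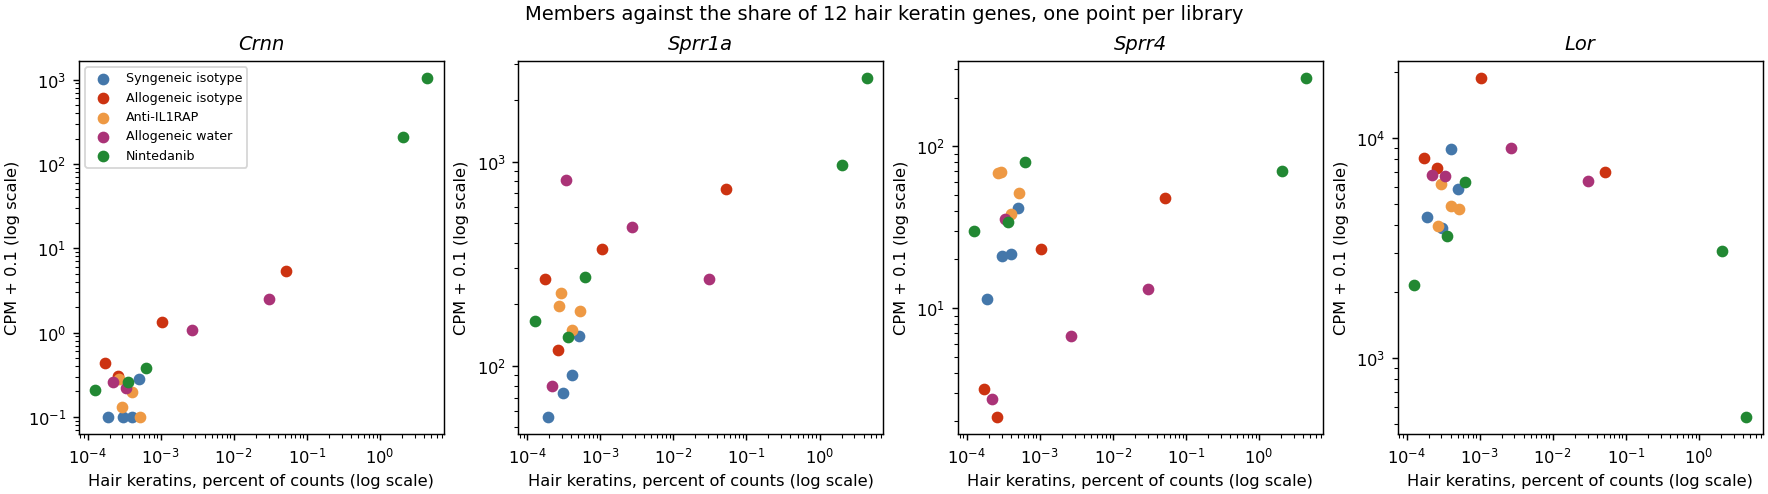
Level of 4 members (CPM plus 0.1, log axis) against the summed share of 12 hair keratin genes (percent of counts, log axis), one point per library, coloured by group. Nintedanib libraries 1 and 3 stand apart at 4.42% and 2.04% with the highest Crnn and Sprr1a, and library 1 has the lowest Lor.

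Other libraries and labels also bore on the count. Leaving out water library 4 gave 9 members called and leaving out water library 1 gave 12, while leaving out nintedanib library 5 gave 29. Water libraries 1 and 2 and nintedanib libraries 2, 3 and 5 carry a label that their reads come from several lanes. Within these 5, Lce1a1 was at -1.22 and Sprr1b at -3.91, and within the other 4 at -1.78 and -4.37. In these splits 1 (Lce1k) and 5 members passed. Suprabasal keratinocyte genes made up 2.64 to 6.39% of counts with water and 0.471 to 3.41% with nintedanib, with 3 of 7 lower, and 5 of 19 differentiation factors fell, including Grhl3 (-1.17 ± 0.22) and Cebpb (-0.78 ± 0.14). Of 10 filaggrin processing genes Asprv1 fell and Padi3 rose, and 0 of 11 scaffold and cross-linking genes changed. The shares over all genes tested were 3.76% lower and 5.56% higher. With a Krt1 and Krt10 covariate 0 members changed, and with Krt5 and Krt14 only Lce1g fell, at -1.80 (adjusted p = 0.0398).

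The difference between the 2 treatment effects was tested over the 17132 genes tested that had counts in both runs. By edgeR 0 members and 0% of these genes passed, with 8 members and 2495 genes at an unadjusted p under 0.05. DESeq2 called 401 genes and 3 members: Crnn, Flg and Lce6a. The largest differences by edgeR, as anti-IL1RAP effect minus nintedanib effect, were -12.65 ± 3.21 (adjusted p = 0.139) for Crnn, where nintedanib libraries 1 and 3 carry hair keratins, -6.36 ± 2.19 (adjusted p = 0.217) for Sprr2f, -4.27 ± 2.00 (adjusted p = 0.333) for Sprr2a2 and -3.83 ± 1.34 (adjusted p = 0.221) for Sprr2h. Of these genes, Crnn, Sprr2f and Sprr2a2 passed the filter only through the allogeneic controls, so their differences are a description. Flg was at -2.95 ± 0.80 (adjusted p = 0.151). For Lce1 genes the difference had a median of -0.44 and went from -1.27 to 0.54. Among members that passed the filter also without the allogeneic controls, the median over 6 Sprr2 genes was -5.48 with anti-IL1RAP and -2.53 with nintedanib, Lce3c was at -5.15 and -3.01, and Lce3f at -6.01 and -4.14. No call on the difference was made by edgeR for any of these genes.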

How the data were processed

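Poly-A RNA from skin was sequenced in 21 libraries of 5 groups; per the labels' protocols, the kit keeps no strand information. The deposited values are whole-number counts per gene symbol that the authors made with FastQC, Trimmomatic, STAR and featureCounts on GRCm39, per the submitters' processing notes. Tool versions, the annotation and the treatment of reads that match several copies are not stated there, and the last bears on Sprr2a and Lce3 genes. Both counting runs had counts for 21830 of 64050 symbols, and 46 of the 47 members were among them (not Sprr2c-ps).

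Counts were fitted with edgeR 4.0.16 in R 4.3.3: filterByExpr at a minimum count of 10, TMM factors, glmQLFit with a mean per group over all 21 libraries, glmQLFTest, and Benjamini-Hochberg adjustment over all genes tested. The code was tested on simulated counts. For a gene at 0 throughout a group, 3 counts over the group set the bound. Sums and ratios per library are of raw counts and have no test. Members, gene lists and rules were chosen with earlier results of these data known. Members given in every library are Flg, Hrnr, Sprr2a1, Sprr1b, Lce1a1, Flg2, Ivl, Lor and up to 2 of the most abundant per subfamily in the first run; of each list, up to 4 genes with the lowest p are named, except 1 that is not reported here. Crnn, Rptn, Lce1b, Lce1g and Lce1k were chosen after their values were seen. Alternatives were RLE factors, no filter, DESeq2 1.42.0, only the groups or run compared, replicate blocks, covariates for muscle, hair and keratinocyte content, splits by lane label and leaving out libraries. No libraries of 1 group had identical counts. Promoters are RefSeq's on GRCm38.p6. Gene order, exon lengths and coding sequences come from a GENCODE annotation of that older build.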

Additional observations from a re-analysis of the deposited data

Results flagged for a closer look

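Single libraries stood apart from the rest of their group for 17 of 95 sets of values tested, by the gap to the nearest library relative to the group's range. For normally distributed values, chance gives about 1 in 20 such groups. The rule was applied to unlogged CPM, where high values stand apart more easily, so this rate may be too low. All genes are measured in the same libraries, so these are not 17 separate events. Nintedanib library 1, with the highest hair keratin share, was apart for Crnn (1044 CPM), Lce6a (147 CPM) and Sprr4 (264 CPM), all high, and for Flg2 (365 CPM), low. Nintedanib library 5 was apart and high for Flg (870.1 CPM), Rptn (136 CPM), Lce3f (3.17 CPM), Sprr2a1 (5.61 CPM) and Sprr2a3 (319.8 CPM). Allogeneic isotype library 4 was apart and high for Hrnr (1045 CPM), Lor (18697 CPM), Lce1a1 (1643 CPM) and Lce6a (215 CPM). With ddH2O, library 4 was high for Lor (8992 CPM) and library 2 for Sprr2a1 (105 CPM). In syngeneic skin, library 3 was the only one with Crnn counts (0.179 CPM), and library 4 was high for Sprr2a1 (0.621 CPM). The reasons were not tested.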

How the results depend on the processing

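Counts of members called kept within 1.5 times of 35, 36, 0, 21 and 0 (allogeneic with syngeneic isotype, anti-IL1RAP with isotype, anti-IL1RAP with syngeneic, nintedanib with water, and the difference of treatment effects) with RLE factors, no filter, DESeq2 (except the last) and muscle or hair covariates. Leaving out 1 library gave 30 to 37, 27 to 38, 0 to 0, 9 to 29 and 0 to 0. The Krt5 and Krt14 covariate gave 21, 15 and 1 for the allogeneic, anti-IL1RAP and nintedanib comparisons, and the added Krt1 and Krt10 covariate 21, 14 and 0, with Lor reversed to -1.16 in allogeneic against syngeneic skin. For nintedanib the count was 1 with only the groups compared, 1 with only its counting run, 1 and 5 in libraries with and without the lane label, and 7 without both libraries with hair keratins. Anti-IL1RAP against syngeneic skin gave 1 of 30 members tested with only those groups, where 2131 of 18953 genes passed. The difference of effects gave 3 by DESeq2. The causes were not tested.

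Title numbers did not pair the samples: deviations of same-numbered libraries correlated between -0.228 and 0.347. A replicate block by title number gave 35, 33, 0, 29 and 0 members, and by description number 36, 36, 0, 29 and 0. Of 1817 values of named members under 35 settings, 1695 kept direction and side of the threshold or stayed uncalled (72 of these changed sign), 88 lost the call, 33 gained it and 1 reversed. All 40 summed levels of a subfamily in a group moved by less than 1 SD with TMM-scaled totals. At this depth, 3 counts over a group correspond to 0.0295 CPM in Syn, which limits folds of Lce3b, Sprr2b, Sprr2c-ps, Sprr2k and Sprr3.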

Other observations

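Genes of other skin compartments were counted beside the envelope genes. Of all genes tested, 13.8% rose and 8.8% fell in allogeneic against syngeneic isotype skin. With anti-IL1RAP 5.58% rose and 5.19% fell, and with nintedanib 5.56% rose and 3.76% fell. Anti-IL1RAP skin had 0.777% of genes higher than syngeneic skin. Some of the counts below are small and lie near these shares, as for skeletal muscle. Of 6 sebaceous gland genes 4 fell in allogeneic against syngeneic isotype skin and 4 rose with anti-IL1RAP, and 5 rose with nintedanib, with medians of -2.74 and 3.06 on the log2 scale in the first 2 comparisons. Of 6 T cell genes 6 rose in allogeneic skin, with a median of 3.03, while 0 fell with anti-IL1RAP, 0 changed with nintedanib and 1 stayed higher than in syngeneic skin. Of 6 macrophage genes 4 rose in allogeneic skin, 0 changed with anti-IL1RAP and 1 fell with nintedanib. The 4 neutrophil genes tested of 6 all rose in allogeneic skin, and 3 fell with anti-IL1RAP and 1 with nintedanib. Of 7 fibroblast genes 2 fell in allogeneic skin and 2 rose with anti-IL1RAP, and 0 changed with nintedanib. Of 16 skeletal muscle genes 2 fell in allogeneic skin, with 0 changed by either treatment. Among internal epithelium genes Krt13 fell in allogeneic skin and rose with anti-IL1RAP. These counts use the same edgeR fit and threshold as the envelope genes.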
